A study of Oryza sativa with 4 samples.

Results

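MicroRNA (miRNA) precursors were followed in rice root hairs with the probes whose names start with osa-, the prefix for Oryza sativa miRNAs. All such probes that were not control spots were taken, which gave 510 probes for 169 precursors of 45 numbered families, out of 42477 probes and 29864 genes on the array. The text before the first bar of a probe name was read as the precursor and the number in it as the family, and no measured value entered the choice. Each precursor had a probe named 5'seq, a probe named 3'seq and a probe named Mature, and miR531 had such a set for chromosome 8 and another for chromosome 11. The files give no probe sequences, so none are shown, and whether probes of one family share a sequence cannot be read from the names.

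Root hairs, each the extension of 1 epidermal cell, were brushed from frozen seminal roots of seedlings at 3 days after germination, and total RNA was hybridised in 1 colour (Cy3) to 4 arrays, 1 sample each. The paper describes biological replicates of one cultivar, while the labels name Don-gin for replicates 1, 2 and 3 and Lon-gin for the remaining array, called the Lon-gin-labelled array here. Slide 1, with scan 1, held replicates 1 and 2. Slide 2, with scan 2, held replicate 3 and the Lon-gin-labelled one. No other tissue was measured, and no sample was treated, so nothing here compares root hairs with another tissue.

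Plant miRNA genes are transcribed by RNA polymerase II into capped and polyadenylated primary transcripts. A Dicer-like enzyme cuts the hairpin out of the transcript and releases the mature miRNA, which guides an Argonaute protein to complementary messenger RNAs. The labelling reaction here copies polyadenylated RNA, and the mature miRNA carries no such tail. The levels below are therefore not read as those of the small RNA. They are taken as readings of precursor transcripts, an assumption that was not tested. Mature and flank probes of the same precursor could differ, as in miR529 below. Conserved families are known for controlling transcription factors of development, auxin signalling, the miRNA machinery itself and the response to phosphate, sulfate and copper supply.

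Levels are log2 signals after each array was scaled to its 75th percentile, and 4 values in a row stand in the order replicate 1, replicate 2, replicate 3 and then the array labelled Lon-gin. A probe counted as measured where the scanner software called both of its spots well above background. The unscaled 75th percentiles were 10.59 and 10.73 for slide 1 against 11.49 and 11.80 for slide 2, and the lowest scaled signal called well above background was 4.06 and 3.90 for slide 1 against 2.50 and 2.45 for slide 2. Of the 73 miRNA probes measured on every array, 41 were higher on slide 2 under each of 6 scalings, 1 was lower under each and 31 changed direction, so a direction between slides holds for the scaling used here unless more is said. The 24 placeholder probes named random or art, which stand for no rice gene, had medians of 2.22, 2.08, 0.74 and 0.54. None of them was well above background on slide 1, and 6 were on each array of slide 2, with the highest at 4.98 and 4.31. Another 24 placeholder probes, named genome, were not part of this set. Of those, 5, 5, 8 and 6 were well above background on the 4 arrays, and 5 were on every array. Levels below are set only against the random and art placeholders. The cellulose synthase-like D gene CSLD1, a root hair marker, had 14.40 ± 0.37 (SD, n = 4) and was well above background on each array. Markers of other root cells were not analysed here, and fewer cells of a type and less RNA per cell cannot be told apart in these samples.

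All 4 arrays measured 49 of the 169 precursors (29%), where 1 probe sufficed, while 97 were measured on some arrays and 23 on none. Among the other 29695 genes the share on all arrays was 67.8%. The 49 precursors came from 24 of the 45 families. By array, 53 and 61 precursors were measured on slide 1 (31.4% and 36.1%) and 143 and 140 on slide 2 (84.6% and 82.8%). Of the other genes, 69.6% and 72.3% were measured on slide 1 and 84.3% and 87.5% on slide 2. Both arrays of slide 2 and neither of slide 1 measured 72 of the 169 precursors and 3073 of the 29695 other genes. No precursor was measured on slide 1 alone. Of the probes, 73 of 510 (14.3%) were well above background on all arrays against 70.6% of the other gene probes. Of these 73, 70 probes of 47 precursors were also above every random or artificial placeholder of the same array.

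The kinds of probe differed in how often they were measured. On all arrays, 32 of 170 5'seq probes were well above background (18.8%), 22 of 170 3'seq probes (12.9%) and 19 of 170 Mature probes (11.2%). On no array were 66, 66 and 86 of them. Of 170 probe sets, 120 had no probe measured on all arrays, 12 had both flank probes on all arrays without the Mature probe, 11 had the Mature probe alone, 13 the 5'seq probe alone and 6 the 3'seq probe alone. The full set was measured on all arrays for 3 precursors, miR168a, miR408 and miR414. Duplicate spots of the 73 probes differed by a median of 0.14 on the log2 scale, and the median absolute difference was 0.33 between the arrays of slide 1, 0.50 between those of slide 2 and 0.87 between the slide means.

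**Figure D1:**
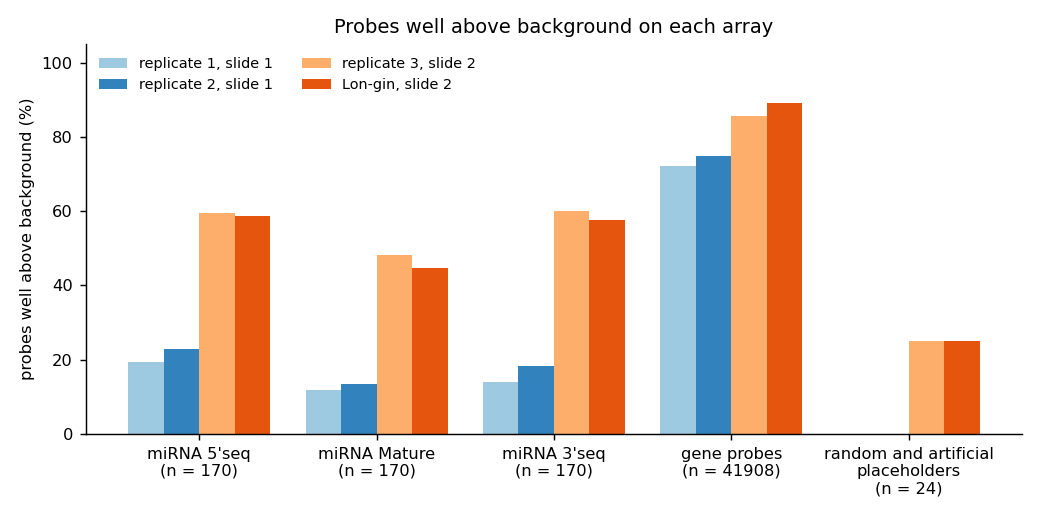
Percentage of probes well above background on each of the 4 arrays, for the 3 kinds of miRNA probe, all other gene probes and the random and artificial placeholder probes. Each bar is 1 array. The miRNA probes range from 11.8% to 22.9% on slide 1 and from 44.7% to 60% on slide 2, and the placeholders go from 0 to 25%.

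Among the families that act on the miRNA machinery, miR168a was measured with every probe. It is known for targeting AGO1 messenger RNAs, which encode the Argonaute that most plant miRNAs use. Its 3'seq probe, on chromosome 2, read 13.79, 13.31, 14.65 and 14.04, and its 5'seq probe read 13.54, 13.11, 13.54 and 12.76. The SDs of the flanks were 0.56 and 0.38 (n = 4), and slide 2 lay above slide 1 for the 3'seq probe while the slides overlapped for the 5'seq probe. The Mature probe of miR168a gave 6.40, 6.73, 7.78 and 7.19, with slide 2 above slide 1. No probe of miR168b was measured on slide 1, where it read between 2.81 and 3.95. The miR162 family, known for targeting the Dicer-like gene DCL1, had both of its precursors on all arrays. For miR162a the 5'seq probe read 5.15, 4.66, 6.63 and 6.15 and the 3'seq probe 4.89, 4.80, 5.08 and 4.41. The slides were apart for the first and overlapped for the second. For miR162b the 5'seq probe read 5.0, 6.03, 6.50 and 5.86, and its duplicate spots were up to 2.31 apart.

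The miR156 family targets SPL transcription factors, which drive the change from juvenile to adult growth, and miR529 targets genes of the same family. Of 11 miR156 precursors 4 were measured on all arrays, 6 on some and 1 on none. In miR156h the 3'seq probe stayed close, at 7.60, 7.57, 7.90 and 7.35, and its 5'seq probe read 5.13, 4.86, 5.71 and 5.43. For miR156d the 3'seq probe read 6.50, 6.33, 8.92 and 8.43, while its 5'seq probe was not well above background on any array. The slides did not overlap for the miR156d 3'seq probe. The Mature probe of miR156k gave 5.06, 5.24, 6.78 and 5.82 and its 5'seq probe 5.04, 4.89, 6.18 and 5.23. In miR529 the Mature probe read 10.85, 9.76, 12.87 and 11.86, an SD of 1.34, and the flank probes were well above background on slide 2 alone, at 3.01 to 3.57 on slide 1 and 4.19 to 5.46 on slide 2.

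Families that target MYB and TCP factors of growth are miR159 and miR319. The flank probes of miR159a, on chromosome 1, were among the steadiest, with 10.59, 10.06, 10.37 and 10.19 for 5'seq and 10.23, 9.78, 9.94 and 9.69 for 3'seq (SD 0.23 and 0.24, n = 4). Its Mature probe was not measured on all arrays, nor was that of any other miR159 precursor. In miR159b the 3'seq probe read 7.88, 7.36, 7.85 and 7.48. The other 4 miR159 precursors were measured on slide 2 alone. For miR319b the 3'seq probe read 4.81, 4.84, 6.31 and 5.66, and miR319a was measured on slide 2 alone.

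The auxin families cover response factors (miR160 and miR167) and receptors (miR393). Of 6 miR160 precursors 5 were measured on all arrays, 4 of them by their Mature probe. The Mature probe of miR160e read 6.97, 6.72, 8.58 and 7.87, and that of miR160a 4.77, 4.73, 6.18 and 5.98. The Mature probes of miR160c and miR160d differed little from each other, at 4.87 and 4.90 on replicate 1 and 6.0 and 6.04 on replicate 3. For all 4 Mature probes slide 2 lay above slide 1. In miR160b the 5'seq probe read 4.98, 4.72, 6.35 and 6.09, that of miR160e 4.26, 4.33, 5.73 and 5.52. For miR160f every probe was measured on slide 2 alone, with the Mature probe at 4.43, 4.51, 5.78 and 5.52.

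In miR167 the pattern was the opposite in probe kind: none of its 10 Mature probes was well above background on any array, while 4 flank probes were on all. The 5'seq probe of miR167d read 7.69, 7.60, 6.89 and 7.16 and its 3'seq probe 6.14, 6.04, 5.74 and 5.71, so that slide 2 lay below slide 1 for both, though above it without scaling. In miR167b the 3'seq probe gave 6.62, 6.55, 6.61 and 6.06. The precursors miR167a, miR167c and miR167e were not measured on any array. For miR393 the 5'seq probe read 4.67, 5.54, 5.83 and 5.71, and miR393b was not measured on any array.

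The miR164 family targets NAC factors that set organ boundaries and lateral roots. It had 4 of 6 precursors on all arrays, all by flank probes. The 5'seq probe of miR164a, on chromosome 7, read 8.12, 8.61, 7.95 and 6.67, and its 3'seq probe 9.14, 9.66, 9.20 and 8.06. The Lon-gin-labelled array was the lowest for both, by 1.28 and 1.15 below replicate 3 of the same slide. In miR164b the 3'seq probe read 8.20, 7.18, 9.07 and 7.90 and its 5'seq probe 5.85, 5.39, 5.91 and 5.33. For miR164f the 5'seq probe gave 5.74, 5.13, 7.46 and 6.85 and the 3'seq probe 5.43, 4.85, 6.13 and 5.53. Replicate 2 was the lowest for the miR164b 3'seq probe and for both miR164f probes.

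Members of miR166 target class III homeodomain-leucine zipper factors, which pattern the vasculature and organ faces. Every one of its 13 precursors was measured on some array, 3 of them on all arrays and 7 on both arrays of slide 2 alone. For miR166m the 5'seq probe read 4.82, 4.40, 7.10 and 6.78, and that of miR166b 2.14, 1.96, 5.87 and 5.59. For miR166h the 5'seq probe read 3.92, 3.92, 6.64 and 6.11, that of miR166e 3.67, 3.33, 5.84 and 5.78 and that of miR166d 2.15, 2.42, 4.98 and 4.70. In each of these the 2 arrays of a slide were close and the slides were far apart, and for 4 of them slide 1 gave only a bound. The Mature probes of miR166a and miR166d, on all arrays, read 4.70, 4.54, 5.85 and 5.68 and 4.93, 4.49, 5.82 and 5.33.

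The GRAS transcription factors targeted by miR171 include regulators of meristems. The flank probes of miR171f, on chromosome 3, were measured on each array, at 10.80, 10.88, 10.17 and 10.57 for 5'seq and 11.10, 11.20, 10.56 and 11.16 for 3'seq. Its Mature probe read 2.11, 2.50, 4.64 and 4.51 and was measured on slide 2 alone. The flanks of miR171h read 6.72, 7.36, 7.49 and 7.51 for 5'seq and 6.30, 6.82, 6.97 and 6.92 for 3'seq. For both precursors the flank probes of one precursor followed each other across the arrays. On slide 2 alone were the Mature probes of miR171b (2.88, 2.65, 4.63 and 4.55), miR171c (2.47, 2.40, 4.36 and 4.19) and miR171d (2.40, 2.33, 4.70 and 4.56). On replicate 3 all of these lay below the highest random or artificial placeholder. In miR171e the 3'seq probe read 2.48, 2.47, 5.22 and 5.11, also on slide 2 alone.

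In the miR169 family, which targets NF-YA subunits of a CCAAT-binding factor, 5 of 16 precursors were measured on all arrays, and no Mature probe was. In miR169e the 5'seq probe gave 6.89, 6.29, 7.85 and 7.75, and the 3'seq probe of miR169a 7.05, 6.71, 7.79 and 7.19. In miR169o the 5'seq probe read 5.40, 5.08, 7.40 and 5.64, with replicate 3 above the others. For miR169l the 5'seq probe read 2.45, 2.89, 4.92 and 4.72. Families that were not measured on all arrays with any precursor include miR172 (AP2 factors of flowering), miR390 (trans-acting small RNAs), miR396 (growth-regulating factors) and miR397 (laccases). In miR172 the Mature probes read between 1.87 and 3.53 on slide 1 and at most 0.49 on slide 2.

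Among the families tied to nutrient supply, miR399 held the probes with the largest differences between slides among those measured on all arrays. It targets the messenger RNA of PHO2, a ubiquitin-conjugating enzyme that holds back phosphate uptake, and is known for rising when phosphate is short. The seedlings grew on a medium with Murashige and Skoog basal salts, and no other phosphate supply was compared. Of 11 precursors 5 were measured on all arrays and 4 on both arrays of slide 2 alone. The Mature probes of miR399e, miR399f, miR399g and miR399h read between 5.02 and 5.48 on replicate 1, between 5.07 and 5.55 on replicate 2, between 9.21 and 9.42 on replicate 3 and between 8.58 and 8.83 on the remaining array. The slides did not overlap, and the 4 probes differed among themselves by less than 0.5 on any array, so they cannot be told apart by their values. For miR399h the values were 5.02, 5.07, 9.26 and 8.72, which is 15.4-fold higher on slide 2, with an adjusted p of 0.025 in limma. The call of all 4 was lost with quantile normalization (adjusted p from 0.054 to 0.067), with normexp (0.083 to 0.114) and without replicate 1 (0.26) or replicate 2 (0.19). The folds for miR399e, miR399f and miR399g were 11.9, 14.6 and 12.3.

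None of the flank probes of these precursors was measured on slide 1. On slide 2 alone, the 5'seq probe of miR399e read 3.72, 3.86, 6.18 and 5.66 and the 3'seq probe of miR399f 1.95, 1.92, 4.22 and 3.76. Also on slide 2 alone, the 5'seq probe of miR399f read 3.07, 2.56, 4.95 and 4.60. The 3'seq probes of miR399e and miR399g, on slide 2 alone as well, read 3.04, 2.67, 4.46 and 3.85 and 3.12, 2.41, 5.22 and 4.78. For miR399g the 5'seq probe was not well above background on any array, at 1.59 to 1.84. For miR399h the flanks read between 3.30 and 4.14 on all arrays. For miR399d it was the flanks that were measured everywhere: the 3'seq probe read 6.77, 5.24, 7.20 and 6.55 and the 5'seq probe 6.13, 5.05, 6.70 and 5.93, with replicate 2 the lowest for both. Its Mature probe read 3.89, 3.44, 6.92 and 4.53, high on replicate 3 and not on the array beside it. The other Mature probes of the family, from miR399a, miR399b, miR399c, miR399i, miR399j and miR399k, lay between 2.33 and 5.88.

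**Figure D2:**
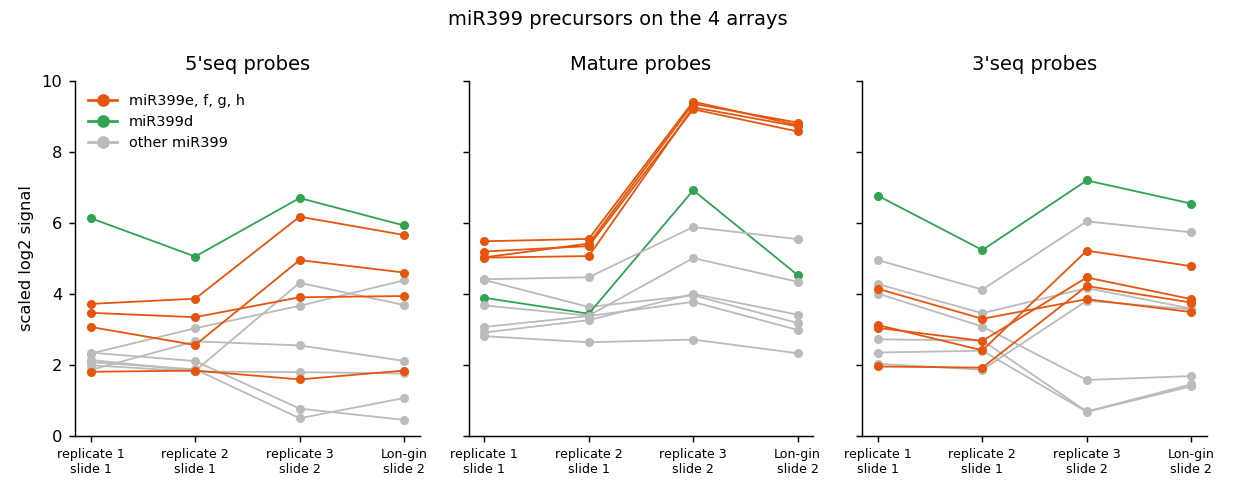
Scaled log2 signal of all 33 miR399 probes on the 4 arrays, 1 line per probe, in a panel for each kind of probe. The Mature probes of miR399e, f, g and h lie between 5.02 and 5.55 on slide 1 and between 8.58 and 9.42 on slide 2, and no flank probe of these precursors exceeds 6.18.

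The largest family on the array was miR395, which targets ATP sulfurylases and a sulfate transporter and is known for rising when sulfate is short. None of its 23 precursors was measured on all arrays, 18 were measured on slide 2 alone and 5 on none. The measured probes were nearly all of the Mature kind: 18 of 23 on each array of slide 2, against 1 of the 3'seq probes. The medians of the 23 Mature probes were 2.32, 2.13, 3.63 and 3.70, and their highest were 3.72, 3.26, 4.46 and 4.38. On replicate 3 they thus did not exceed the highest random or artificial placeholder. Of these, miR395f read 2.28, 2.16, 4.46 and 4.38, miR395w 2.39, 1.84, 4.19 and 4.36 and miR395j 2.01, 1.68, 3.86 and 3.67.

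Copper-responsive families were measured unevenly. These miRNAs spare copper by lowering copper proteins: blue copper proteins for miR408, Cu/Zn superoxide dismutases for miR398, laccases for miR397 and, in rice, an ascorbate oxidase for miR528. For miR408, on chromosome 1, the 3'seq probe read 9.01, 9.12, 11.11 and 10.69, the Mature probe 7.13, 6.87, 8.93 and 8.17 and the 5'seq probe 4.66, 4.86, 4.92 and 4.64. The first and second of these had slide 2 above slide 1. The third stayed within 0.28 over the arrays and was below the highest random or artificial placeholder on replicate 3. For miR398b the Mature probe read 6.23, 5.87, 7.97 and 7.29 and the 3'seq probe 5.05, 4.91, 6.23 and 5.84. Neither precursor of miR397 had a probe on both arrays of a slide.

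The flank probes of miR528, on chromosome 3, set the 4 arrays in an order that was not that of the slides. The 3'seq probe read 7.93, 9.72, 9.51 and 8.49, and the 5'seq probe 6.47, 8.48, 8.24 and 6.88. Low values came from replicate 1 and from the array labelled Lon-gin, and high ones from replicates 2 and 3, with both probes. Within slide 1 replicate 2 was 1.79 and 2.0 above replicate 1, and within slide 2 the Lon-gin-labelled array was 1.02 and 1.36 below replicate 3. The slide means differed by 0.18 and 0.08.

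For miR394, which targets an F-box gene of leaf shape, the Mature probe read 4.66, 4.37, 6.04 and 5.89. Its flank probes were measured on slide 2 alone, with 3.01, 3.57, 7.68 and 7.08 for 3'seq and 2.36, 3.50, 5.65 and 5.95 for 5'seq. All of its probes lay higher on slide 2, with precursor means of 3.34 and 3.81 for slide 1 against 6.46 and 6.31 for slide 2. With slide 1 held at the lowest signal called well above background, the 3'seq probe was at least 10.5-fold higher on slide 2.

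For miR419, miR441b, miR441c and miR442, 1 flank probe was measured on all arrays and the Mature probe on none. The 5'seq probe of miR419, on chromosome 12, read 9.20, 10.18, 11.47 and 11.45. In miR441b the 5'seq probe read 8.86, 8.10, 9.28 and 9.78, that of miR441c 5.54, 4.33, 7.79 and 8.14. In miR442 the 3'seq probe gave 6.47, 5.73, 8.15 and 7.72. Slide 2 lay above slide 1 for each of these probes. The Mature probe of miR414, on chromosome 11, read 9.35, 9.26, 9.98 and 9.51 and its 5'seq probe 7.26, 6.79, 9.47 and 8.83, while its 3'seq probe stayed between 5.46 and 6.08. The miR531 probes for chromosomes 8 and 11 gave nearly the same values. Their Mature probes read 7.19, 7.16, 8.89 and 8.55 for chromosome 8 and 7.14, 7.13, 8.91 and 8.57 for chromosome 11. These sets cannot be told apart.

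On slide 2 alone, the 5'seq probe of miR440 read 3.85, 4.24, 7.44 and 7.30 and that of miR446 1.96, 2.21, 5.97 and 4.93. The Mature probe of miR415 read 3.36, 3.29, 5.19 and 4.81, the 3'seq probe of miR530 3.19, 3.08, 5.01 and 4.87, and the 5'seq probe of miR445d 2.18, 1.84, 4.29 and 4.27. For miR445a the 3'seq probe read 1.96, 1.78, 3.70 and 3.56. The call of slide 2 alone did not always go with a higher level. The 3'seq probe of miR439a, called on slide 2 alone, read 3.63, 4.34, 3.00 and 3.36 and so was lower on the slide where it was called. For miR439j the called 5'seq probe read 3.44, 4.04, 4.52 and 4.38, higher on slide 2, while the precursor mean with its unmeasured probes was 2.87, 3.51, 1.71 and 1.60. Of the 510 miRNA probes, 170 were called on both arrays of slide 2 and neither of slide 1, as were 3994 of 41908 other gene probes. Of these 170 miRNA probes, 21 had a lower scaled signal on slide 2. On both slide 2 arrays, 31 were above the highest random or artificial placeholder.

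**Figure D3:**
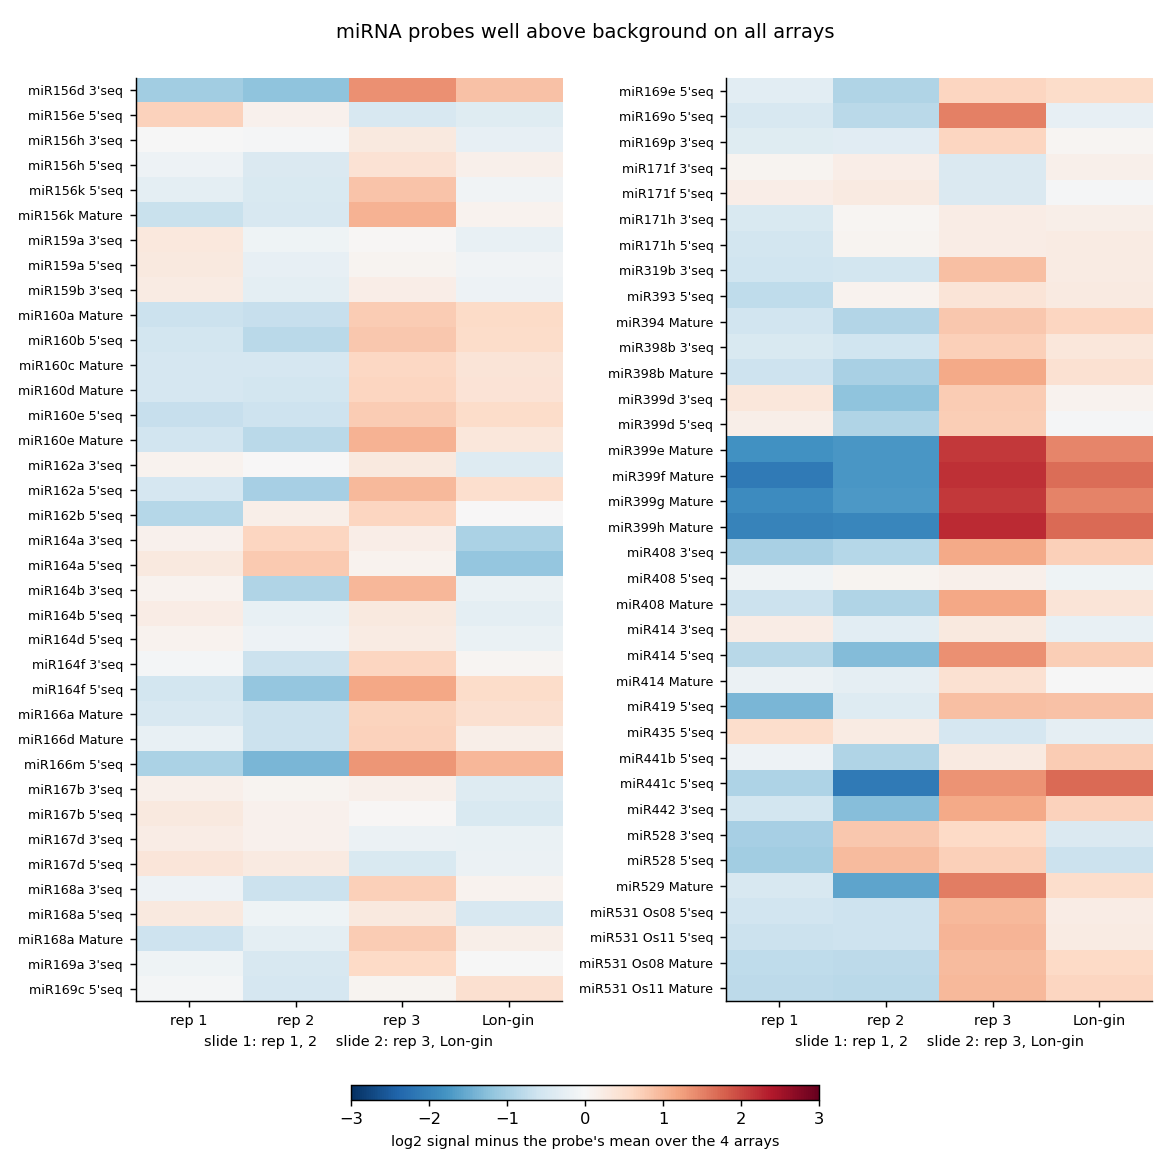
Heat map of the 73 miRNA probes well above background on all arrays. Rows are probes and columns arrays, and the colour is the scaled log2 signal minus the mean of that probe over the 4 arrays. The Mature probes of miR399e to miR399h change most, and miR528 is low on replicate 1 and on the last array.

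Ordinary gene probes gave a further reading of some of the same transcripts. A transcript identifier of the rice annotation was attached to 96 flank probes of 49 precursors, and 51 of these probes, from 26 precursors, shared it with a gene probe elsewhere on the array. Over 18 transcripts whose chromosome matched that in the probe name, the gene probe was well above background on all arrays for 9, and for 8 of these a flank probe was too. For 1 transcript, that of miR160b, the flank was measured on all arrays and the gene probe was not. The 9 transcripts include the one of miR439a, on chromosome 1, whose gene probe read 9.05, 8.95, 8.62 and 8.47 while no flank of it was measured on slide 1. That transcript was also attached to flank probes of 6 other miR439 precursors on other chromosomes, and it was left out of what follows.

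For miR528 the gene probes moved as the flanks did. The gene Os03g0129400 had 2 probes, at 6.33, 8.24, 8.45 and 7.32 and at 6.53, 8.38, 8.51 and 7.35. As with the flanks, replicates 2 and 3 were high and the other 2 arrays low. Replicate 2 lay 1.91 and 1.86 above replicate 1, and the Lon-gin-labelled array 1.13 and 1.16 below replicate 3. All 4 probes thus put the arrays in the same 2 pairs, with the pairs split across the slides. The gene probe of miR159a, Os01g0507000, was steady like its flanks, at 13.32, 12.94, 13.04 and 12.95 (SD 0.18, n = 4). For miR168a the gene probe of Os02g0129700 read 10.28, 10.56, 10.72 and 10.50, also with a small spread (SD 0.18, n = 4). Here replicate 2 lay 0.28 above replicate 1 with the gene probe but 0.48 and 0.43 below it with the 3'seq and 5'seq flanks. On slide 2 the gene probe was 0.19 higher, the 3'seq flank 0.80 higher and the 5'seq flank 0.17 lower. The gene probe of miR156h, Os06g0649600, read 9.53, 9.54, 10.01 and 8.43, and, as with the 3'seq flank, the Lon-gin-labelled array was the lowest.

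For the other transcripts some flanks and the gene probe differed between slides by different amounts. The 3'seq probe of miR408 was 1.84 higher on slide 2 and the gene probe of the same transcript, Os01g0322700, read 7.13, 8.23, 7.57 and 7.06, which is 0.37 lower on slide 2 in this scaling, and the 5'seq probe differed by 0.02. The 3'seq probe of miR156d was 2.26 higher on slide 2, and its gene probe, Os02g0180800, read 5.52, 5.49, 5.56 and 6.33, a difference of 0.44. In miR164b the 3'seq flank was 0.80 higher on slide 2 and the gene probe, Os05g0339300, 0.79 lower, at 10.67, 10.43, 10.25 and 9.26, while the slide means of the 5'seq flank were equal to 2 decimals. The gene probe of miR162a, Os02g0602900, read 6.25, 5.25, 6.02 and 5.34, where replicates 1 and 3 were the higher arrays. It was 0.07 lower on slide 2, as was the 3'seq flank by 0.10, and the 5'seq flank was 1.49 higher. These differences between probes of 1 transcript were not tested.

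**Figure D4:**
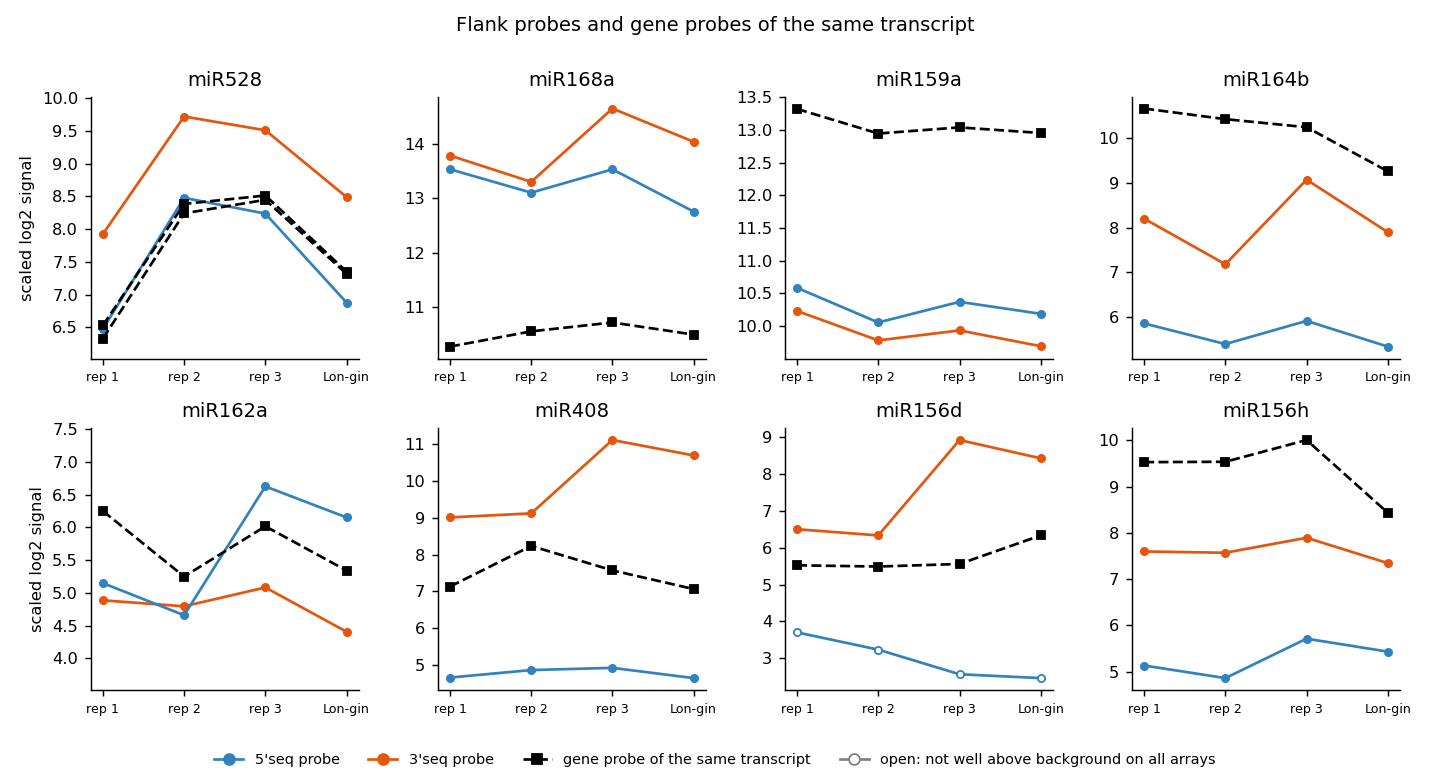
Scaled log2 signal on the 4 arrays of the 5'seq and 3'seq probes of 8 precursors and of gene probes that carry the same transcript identifier, each axis spanning at least 4 log2 units. The miR528 probes and the gene probes of its transcript split the arrays into the same pairs, and the miR408 and miR156d 3'seq probes are 1.84 and 2.26 higher on slide 2 where the gene probes differ by less than 0.5.

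The slides were compared with limma over all probes that at least 1 slide measured on both of its arrays, since slide and scan are technical and every level above rests on them. Of 267 miRNA probes tested, 28 were higher on slide 2 and none lower at an adjusted p under 0.05. Over all 35890 probes 3.02% were higher and 0.111% lower. No miRNA probe was called with quantile normalization or normexp, nor without replicate 1 or replicate 2, and 53 and 66 were called without replicate 3 or the array labelled Lon-gin. The 28 probes belonged to 26 precursors of 12 families, 11 of them 5'seq, 11 Mature and 6 3'seq. Of the 28, 22 were measured on slide 2 alone and passed the filter only through that slide. The count is therefore no support for a change. For 20 of the 22 a bound above 1 could be given against the lowest signal called well above background on slide 1. The bounds were at least 9.33-fold for the miR440 5'seq probe, at least 5.22-fold for miR166h, at least 3.82-fold for miR399e, at least 3.55-fold for miR166e and at least 3.35-fold for miR166b, all 5'seq. Besides miR394, the other bounds were at most 3.13-fold. On both slide 2 arrays, 10 of the 22 were above the random and artificial placeholders.

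The 6 probes measured on all arrays and called were the Mature probes of miR399e, miR399f, miR399g and miR399h, the 3'seq probe of miR156d and the 5'seq probe of miR166m. Among probes measured on all arrays, 73 of them for miRNAs, 4 were called higher and none lower, where 0.863% of all 29657 probes were higher and 0.0472% lower. These 4 were the miR399 Mature probes, with adjusted p between 0.027 and 0.032 in limma. The miR156d and miR166m probes had 0.053 and 0.051 there. The arrays of one slide and the other also differ in scan, and the seedlings of the arrays on each slide are not described further, so scan and plants cannot be told apart.

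Among precursors measured on all arrays, with their 3 probes averaged, the slides did not overlap for 32 of 49, with slide 2 higher for 26 (53.1%) and lower for 6 (12.2%). The split was 13 higher and 10 lower with quantile normalization (26.5% and 20.4%) and 18 and 8 with normexp (36.7% and 16.3%). Without scaling it was 44 and 0 (89.8% and 0%). Of the other genes, 18% were higher and 38.1% lower with quantile normalization, and 17.9% and 38.4% with normexp. Without scaling these were 85.3% and 0.511%. Among the 6 lower precursors in the scaling used were miR441b and miR442, whose only measured probes were 1.05 and 1.83 higher on slide 2, since their unmeasured probes entered the mean. With only the measured probes averaged, slide 2 was higher for 36 of 49 (73.5%) and lower for 6 (12.2%), with a median difference of 1.01. Among the other genes these shares were then 25.5% and 28%, with a median difference of -0.01. With all probes averaged, in the scaling used, the shares among the other genes were 25.9% and 27.8%. The median difference with all probes averaged was 0.37 for the precursors and -0.01 for the other genes. The median SD over arrays, also with all probes averaged, was 0.469 for the precursors and 0.382 for the other genes. With only measured probes averaged it was 0.685 for the precursors. In the mean of all probes, a spread of more than 4-fold over the arrays was found in 6 of the 49 precursors, against 12% of the other genes. These are miR394, miR399d, miR399e, miR399f, miR399g and miR529. The probes of miR394 and miR399d measured on all arrays were each less than 4-fold apart. Probes measured on all arrays were more than 4-fold apart in further precursors, among them miR399h, miR441c and miR442.

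The Mature probes differed most between the slides. All 19 measured on all arrays were higher on both slide 2 arrays, with a median difference of 1.45, and all 19 slide means were higher under each of the 6 scalings. Of the 5'seq probes 18 of 32 were higher and 6 lower (median 0.66), and of the 3'seq probes 10 of 22 were higher and 1 lower (median 0.49). With quantile normalization these were 9 higher and 8 lower (median -0.04) and 4 and 4 (median -0.09). Over the other probes on all arrays 24.3% were higher and 29.4% lower. Over the 7909 of these with mean levels from 4.30 to 7.77, the lowest to the 75th percentile of the miRNA probes, 33.7% were higher and 14.3% lower. Some Mature probes gave nearly the same values within a family, as in miR160, miR399 and miR531, so that the 19 are not independent readings. The 1 miRNA probe that was lower on slide 2 under every scaling was the 5'seq probe of miR164a.

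**Figure D5:**
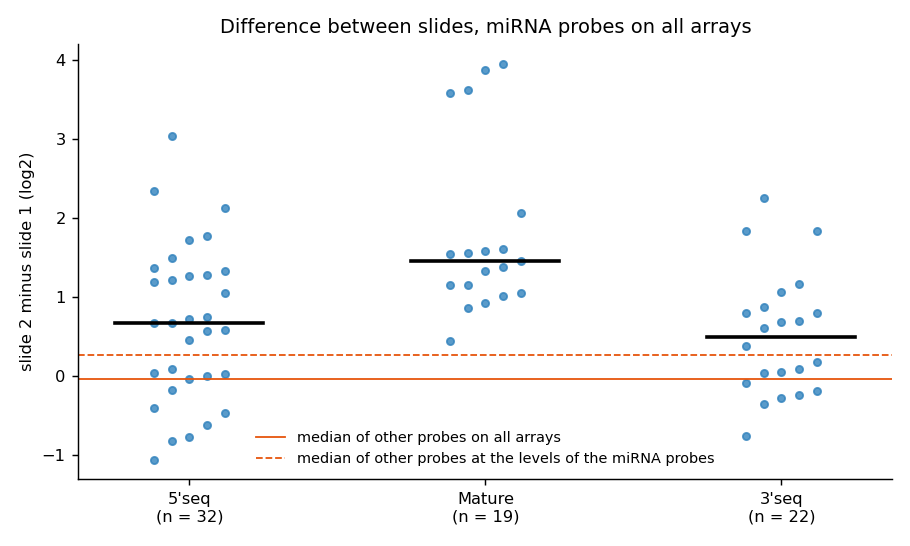
Slide 2 minus slide 1, in log2, for the 73 miRNA probes well above background on all arrays, by kind of probe, with a black line at each median. Lines across mark the median of the other probes on all arrays and of those at the levels of the miRNA probes. All 19 Mature probes lie above 0, with a median of 1.45.

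The array labelled Lon-gin was set against the remaining arrays to see whether the different cultivar label went with a difference. Of 274 miRNA probes tested with limma, none passed an adjusted p under 0.05, and 3 had an unadjusted p under 0.05. Over all 37644 probes 0.00266% were higher and 0% lower. Over the 73 measured on all arrays none passed and 2 had an unadjusted p under 0.05, where 0.00674% of all probes were higher and 0.111% lower. When the slide was added as a block, which leaves 1 residual degree of freedom, 1 miRNA probe was lower, the Mature probe of miR399d, and over all probes 1644 were higher and 283 lower. The spread of this array was taken to be that of the other 3, and the fit without the block has 2 residual degrees of freedom. Within slide 2, the Lon-gin-labelled array was below replicate 3 for 64 of the 73 miRNA probes on all arrays (87.7%), by a median of 0.50, and for 51% of the other probes. Within slide 1, replicate 2 was below replicate 1 for 50 of the 73 (68.5%), by a median of 0.15, and for 54.3% of the others. Without scaling these shares were 65.8% against 24.2% within slide 2 and 50.7% against 43% within slide 1. With quantile normalization they were 94.5% against 56% and 80.8% against 58.8%. Other probes at the levels of the miRNA probes were not set apart here. The miRNA probes that went the other way on the Lon-gin-labelled array included the flanks of miR171f, at 0.39 and 0.60 above replicate 3, and the 5'seq probes of miR441b and miR441c, at 0.49 and 0.35 above it.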

How the data were processed

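The authors hybridised root-hair RNA to Agilent 4x44K rice arrays and deposited the scanner intensity of each spot, made with Feature Extraction 11.5.1.1 per the file headers and 9.1 per the submitters' processing notes. A deposited log2 table served as an alternative. For its normalization the paper cites earlier work and gives no detail.

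Control spots were left out, and so were 126 outlier spots of probes with another spot, 2 of them of miRNA probes. No miRNA spot was saturated. Log2 of the processed signal was averaged over spots, and the 75th percentile of each array was subtracted and the mean percentile added back. Probes of a precursor were averaged. Comparisons used limma 3.58.1 in R 4.3.3 with Benjamini-Hochberg adjustment over all probes tested. The fits were also run on simulated data made from probes measured on all arrays. That run does not cover probes measured on slide 2 alone. The tables were made with numpy 2.4.6 and pandas 2.3.3 and the figures with matplotlib 3.10.9. A bound on a fold compares the mean of slide 2 with the higher of the probe and the lowest signal well above background on each slide 1 array. P-values measure the spread between these samples only, and the number of arrays limits precision. In the slide comparison they rest on the spread between arrays of the same slide. No slide was repeated, so they do not cover variation from slide to slide. Levels of different probes are not comparable as amounts of RNA, and ranks by mean served only to choose names.

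Precursors were named in full if they were among the 24 with the highest mean of those on all arrays, passed limma, were more than 4-fold apart between arrays (at most 10) or were on 1 slide alone (at most 8, by difference). Members and lists were chosen with earlier results of these data known. Listed target genes and genes of miRNA biogenesis could not be matched to the probes by the tables at hand and were not used, and of the markers only CSLD1 was matched. Alternatives were other scalings, normexp with an offset of 50 on the median signal, other detection rules, a block for the slide and the omission of each array.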

Additional observations from a re-analysis of the deposited data

Results flagged for a closer look

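Of 52 probes of the named precursors on all arrays that were examined, 1 had an array far from the others. It was the 3'seq probe of miR171f, at 10.56 on replicate 3 against 11.10, 11.20 and 11.16 on the other arrays, where the gap to the nearest array took 0.843 of the whole range. Chance alone flags about 1 in 20 such groups. The 5'seq probe of miR171f was also lowest on replicate 3, at 10.17.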

How the results depend on the processing

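The 49 precursors detected became 125 with the scanner's weaker call of a positive and significant signal and 3 where every probe had to be well above background. They were 49 to 61 with 1 array left out. After the data were seen, 2 more rules were tried. They gave 68 where 1 of the duplicate spots was enough and 47 above the highest random or artificial placeholder. The median SD of precursors, 0.469, was 0.839 without scaling, 0.152 with normexp, 0.249 with the deposited values, 0.744 with the brightest probe and 0.396 to 0.514 with 1 array left out. It was 0.685 where only measured probes were averaged, a choice made after the data were seen. The 28 miRNA probes called between slides became 184 without scaling, 0 with quantile normalization (77 at an unadjusted p under 0.05), 0 with normexp (21), 17 with the deposited values, 116 with no filter on dim probes, of which 48 were higher and 68 lower, and 4 over probes on all arrays, a choice made after the data were seen. With 1 array left out they were 0 to 66, none without replicate 1 or replicate 2 (116 and 112 at an unadjusted p under 0.05), 53 without replicate 3 and 66 without the Lon-gin-labelled array. The cause was not tested, except that fewer arrays leave 1 degree of freedom. Over all 35890 probes in the slide comparison, 267 of them for miRNAs, 9496 were higher and 40 lower without scaling. These counts were 155 and 23 with quantile normalization, 112 and 16 with normexp and 3092 and 49 with the deposited values. With no filter on dim probes, 1540 of 42477 were higher and 1592 lower, where 510 were miRNA probes. For the Lon-gin-labelled array the count of 0 became 1 with the slide as a block, the Mature probe of miR399d, and was 0 to 53 with 1 array left out. The 53 without replicate 3 equal those of the slide comparison by construction. The 32 precursors whose slides did not overlap became 122 with no filter on dim probes and were 23 to 44 under the other alternatives, with 42 where only measured probes were averaged, a choice made after the data were seen.

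All 19 Mature probes kept slide 2 higher under each of 6 scalings, and both slide 2 arrays lay above slide 1 for 19, 19, 18, 12 and 11 of them with the percentile over detected probes, no scaling, the deposited values, quantile and normexp. Of the 73 miRNA probes on all arrays, 41 were higher on slide 2 and 1 lower under every scaling, and for 31 the direction changed. The median difference of the other probes was -0.04 in the scaling used, 0.04 with the percentile over detected probes, 0.95 without scaling, -0.19 with quantile normalization, -0.13 with normexp and 0.56 with the deposited values. For the miR399 Mature probes the difference was 1.64 to 4.93 over the scalings. The mean level of a named precursor moved by more than its SD in 2 of 50 cases with quantile normalization. No paired analysis was possible because all arrays are of 1 group. The comparisons of target genes and of biogenesis genes were not run.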
